A study of Mus musculus with 49 samples.

Results

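The heat shock chaperones are 10 genes of the stress-inducible protein folding machinery, followed here in mouse liver after a toxic dose of acetaminophen (APAP, paracetamol): Hspa1a, Hspa1b, Hspa8, Dnajb1, Bag3, Hspb1, Hsph1, Hsp90aa1, Hspd1 and Hspe1. They were taken by symbol, as every probe set that the platform annotation assigns to that gene alone, which gave 23 probe sets of 10 genes among the 18193 genes with such a probe set on the array. The livers came from male C57BL6/N mice, with no genetic alteration named in the labels. The treated mice received 300 mg APAP per kg body weight once, intraperitoneally in warm saline buffer, after a night of starvation, and had free access to food from then on. The 10 groups are control livers (treatment none in the labels, which do not say whether those mice were starved or given the buffer), the early times 1 h, 6 h and 12 h, the times of 1 d and 2 d, and the late times 4 d, 6 d, 8 d and 16 d. The 6 h group has 4 arrays and each other group has 5; for 16 d only the sample labels give the time. The labels do not say that the arrays of a group are separate mice, so the p-values rest on the scatter among arrays alone, and part or all of that scatter may be technical.

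Chaperones of this set hold unfolding proteins, refold them or pass them on to degradation. HSP70 proteins bind exposed hydrophobic stretches in a cycle driven by ATP that J-domain proteins start and nucleotide exchange factors end, HSP90 finishes the folding of kinases and receptors, small heat shock proteins keep unfolding proteins soluble, and the HSP60 and HSP10 pair folds proteins inside mitochondria. Damaged proteins release heat shock factor 1 from its chaperones, and it then binds heat shock elements in the promoters of these genes. In hepatocytes the reactive metabolite of APAP binds covalently to cellular proteins, mitochondrial proteins among them.

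The values are log2 expression per probe set after robust multi-array averaging (RMA). Array means over the shared probe sets lay between 6.03 and 6.33, and arrays of a group correlated with r from 0.969 to 0.996. The spread of values on an array (SD over probe sets) was narrower, 2.25 to 2.26, on 3 arrays (control replicate 3, 1 h replicate 3 and 16 d replicate 4) than on the other 46, with 2.40 to 2.48. The control, 6 h, 4 d, 6 d and 8 d arrays held values for part of the array only, and 8 of the 23 probe sets, from Dnajb1, Bag3, Hspb1, Hsph1, Hspa8 and Hspe1, had values in all 10 groups. The other 15, which include every probe set of Hspa1a, Hspa1b, Hsp90aa1 and Hspd1, had values at 1 h, 12 h, 1 d, 2 d and 16 d and are compared with the 1 h and the 16 d livers. Differences between groups are given on the log2 scale, ± their standard error (SE) from limma, and were called where the p, adjusted by the Benjamini-Hochberg method over all probe sets of the contrast, was under 0.05. Levels of different probe sets are not comparable with each other, since each probe set has its own response.

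Whether the letters of a heat shock element bear on the course of a transcript was not tested. The promoter stretches of 5 of these genes are shown as examples that hold such letters. They are the 250 bases before the annotated start of transcription, 5′ to 3′ on the gene's strand, from RefSeq (GRCm38.p6), and capitals mark the motif with 2 units, GAANNTTC or TTCNNGAA (inverted repeats of GAA, the unit that the factor reads). Hspa1a lies at chr17:34972157-34972406 and Hspa1b at chr17:34959239-34959488, both on the minus strand, with start sites 12918 bases apart; Hspb1 lies at chr5:135887669-135887918 (plus), Hsph1 at chr5:149636337-149636586 (minus) and Hspe1 at chr1:55087898-55088147 (plus).
Hspa1a: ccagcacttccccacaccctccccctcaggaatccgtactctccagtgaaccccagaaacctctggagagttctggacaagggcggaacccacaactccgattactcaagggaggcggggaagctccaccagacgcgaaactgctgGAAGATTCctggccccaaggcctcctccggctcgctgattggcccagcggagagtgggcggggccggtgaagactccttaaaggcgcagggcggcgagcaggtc
Hspa1b: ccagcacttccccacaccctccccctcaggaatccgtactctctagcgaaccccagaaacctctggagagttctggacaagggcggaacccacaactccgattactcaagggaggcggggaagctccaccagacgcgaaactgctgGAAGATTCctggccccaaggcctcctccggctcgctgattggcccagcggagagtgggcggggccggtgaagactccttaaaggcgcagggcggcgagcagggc
Hspb1: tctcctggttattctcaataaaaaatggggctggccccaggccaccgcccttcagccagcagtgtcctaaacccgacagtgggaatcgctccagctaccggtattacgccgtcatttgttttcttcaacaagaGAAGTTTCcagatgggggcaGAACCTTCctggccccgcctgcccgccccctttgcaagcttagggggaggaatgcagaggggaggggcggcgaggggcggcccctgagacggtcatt
Hsph1: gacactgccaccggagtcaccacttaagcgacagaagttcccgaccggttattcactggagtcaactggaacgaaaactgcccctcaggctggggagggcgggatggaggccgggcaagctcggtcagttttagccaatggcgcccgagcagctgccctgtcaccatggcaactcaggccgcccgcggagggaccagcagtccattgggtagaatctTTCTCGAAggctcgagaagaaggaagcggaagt
Hspe1: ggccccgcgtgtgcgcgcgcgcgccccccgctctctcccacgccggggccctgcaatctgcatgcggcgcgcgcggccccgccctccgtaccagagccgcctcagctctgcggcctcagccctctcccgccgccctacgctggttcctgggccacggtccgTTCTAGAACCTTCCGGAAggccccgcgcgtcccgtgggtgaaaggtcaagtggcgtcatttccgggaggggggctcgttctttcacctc
The stretches of Hspa1a and Hspa1b differed in 3 of 250 letters, and both held gaagattc from -104 to -97, counted from the start site. Hspb1 held a pair of such motifs, and Hspe1 held an unbroken run of overlapping motifs from -89 to -72. Hspe1 and Hspd1 lie head to head: the start site of Hspe1 and the farther of the 2 annotated Hspd1 starts are 216 bases apart, and their windows share 285 bases, the Hspe1 motifs among them. RefSeq windows of 300 bases (250 before the start and 50 from it on) were found for 8 of the 10 genes; Hspa8 and Hsp90aa1 had none in the table used. These genes had 11 windows, since Dnajb1, Hsph1 and Hspd1 have 2 annotated starts each, and windows of 1 gene or of facing genes share bases. The motif with 2 units was in 8 of the 11 windows, beside 15.1% of all 32851 windows, and in at least 1 window of 7 of the 8 genes. It was in neither window of Dnajb1, and in Hspd1 it was in 1 of the 2, the window shared with Hspe1. The motif lengthened by another unit in the same spacing (the first followed by NNGAA, the second by NNTTC) was in 4 of the 11, both windows of Hsph1 (ttctggaaagttc, from 37 to 49 of the upstream start), that shared window of Hspd1 and the window of Hspe1, beside 0.603% of all windows. The longer motif contains the shorter one, and the search covered both strands. It took these exact letters within the windows alone. Elements with other letters or outside the windows were not looked for, so a window without a match may still lie near one. CCAAT was in 6 of the 11 windows and 37.4% of all windows, and TATAAA in 0 of the 11 and 13.6% of all.

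All 8 chaperone probe sets with control values were higher at 12 h than in control, and in each of them every 12 h array lay above every control array. They are Dnajb1, a J-domain co-chaperone of HSP70, Bag3, a nucleotide exchange factor that leads HSP70 clients to autophagy, the small heat shock protein Hspb1 (HSP27), Hsph1 (HSP110), an exchange factor of HSP70, the constitutive HSP70 Hspa8 (HSC70), and Hspe1 (HSP10), the lid of the mitochondrial chaperonin. The differences ran from 0.54 to 3.19, with a median of 1.97. Among all 8137 probe sets tested, 11.5% were called higher at 12 h, 6.61% had all 12 h arrays above all control arrays, and the median difference was -0.04. The group mean was highest at 12 h in 8 of 8 of these probe sets, against 9.13% of all probe sets, and in 14 of the 15 without control values, against 13.6%.

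These are whole livers, and more transcript per cell and more cells of a type cannot be told apart in them. The hepatocyte marker with control values, Apoa1, had summed levels of 13.97 to 14.07 at 12 h and 13.92 to 14.03 in control. These signals lie near 14.41, the highest value of the 25 arrays that hold every probe set, where differences can be understated. The neutrophil markers (3 of 5 measured) had summed levels of 7.63 to 11.52 at 12 h and 6.71 to 7.45 in control, with 2 of the 3 called higher and none below the lowest 10% of values, and of the monocyte and macrophage markers (4 of 6 measured) 1 was called higher, with sums of 10.08 to 11.36 at 12 h and 9.75 to 10.58 in control. Of the 4 stellate cell and myofibroblast markers measured 1 was called higher, with sums of 7.44 to 8.19 at 12 h and 6.79 to 7.60 in control. Of the 3 endothelial markers 1 was called higher and 1 lower. At 1 d, 2 of 3 neutrophil, 3 of 4 monocyte and macrophage, 2 of 4 stellate cell and 2 of 3 endothelial markers were higher than in control. Of the 3 lymphocyte markers 1 was lower there. The part of all these cells in the chaperone differences was not tested.

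**Figure D1:**
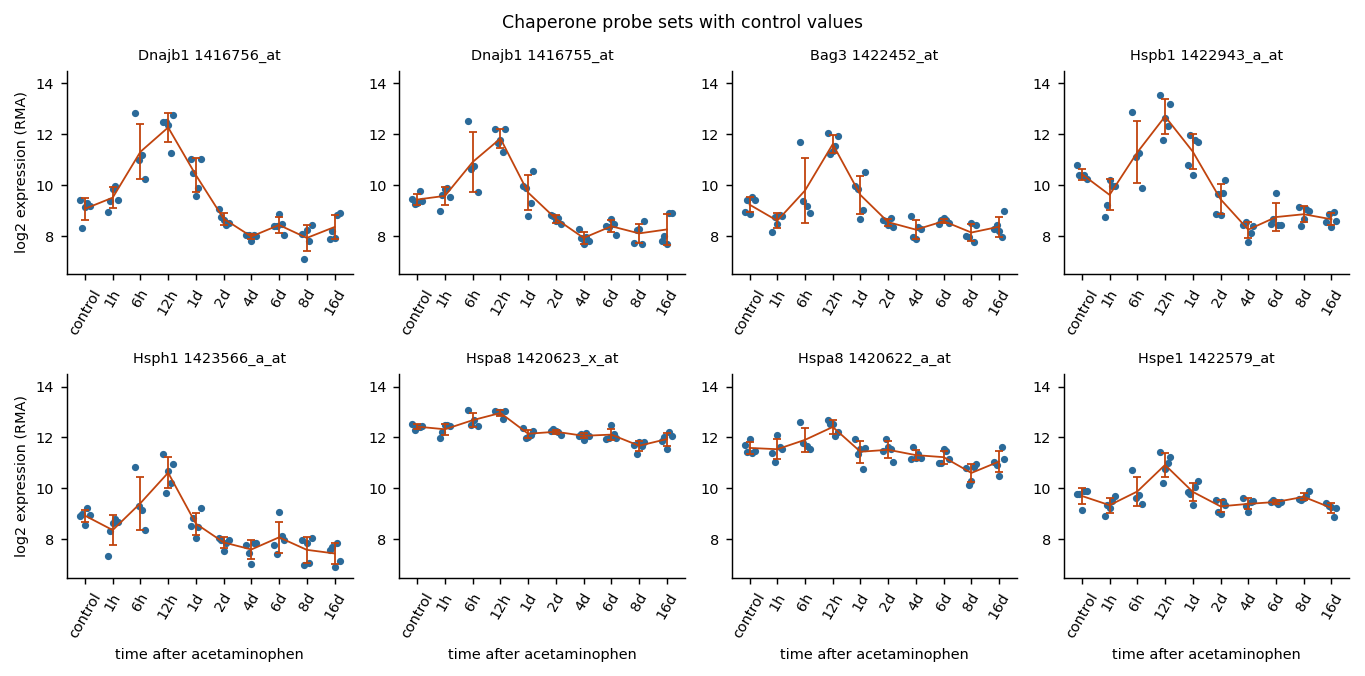
Log2 expression (RMA) of the 8 chaperone probe sets with control values, 1 panel per probe set, against time after acetaminophen with control at the left. Points are arrays, lines join group means and bars are 1 SD; each panel has its highest mean at 12 h, and 1 array at 6 h stands above the other 3 of that group in every panel.

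Dnajb1 had the largest difference among the 8. Its probe set 1416756_at read 12.50, 12.48, 12.36, 11.26 and 12.75 on the 12 h arrays, against 9.41, 8.34, 9.14, 9.32 and 9.18 on the control arrays. No 12 h array came within 1 log2 unit of a control array. The difference was 3.19 ± 0.32, 9.15-fold (limma, adjusted p = 1.76e-10), and the other Dnajb1 probe set, 1416755_at, gave 2.40 ± 0.30 (adjusted p = 6.67e-08). Over the whole course the mean level of 1416756_at was 9.08 ± 0.43 in control, 9.51 ± 0.40 at 1 h, 11.31 ± 1.09 at 6 h, 12.27 ± 0.58 at 12 h, 10.40 ± 0.66 at 1 d, 8.69 ± 0.24 at 2 d, 7.99 ± 0.10 at 4 d, 8.44 ± 0.30 at 6 d, 7.93 ± 0.53 at 8 d and 8.36 ± 0.49 at 16 d (SD, n = 5, at 6 h n = 4). In order of level, 12 h was followed by 6 h, 1 d and 1 h, and the lowest means were at 4 d and 8 d. Among successive times, 6 h against 1 h, 1 d against 12 h and 2 d against 1 d were called, and 12 h against 6 h was not (0.96 ± 0.34, adjusted p = 0.068).

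Bag3 (1422452_at) read 12.04, 11.23, 11.34, 11.54 and 11.92 at 12 h, against 8.94, 9.41, 8.88, 9.54 and 9.42 in control. The difference was 2.37 ± 0.31, 5.18-fold (limma, adjusted p = 1.17e-07), and the groups were more than 1 log2 unit apart. Dnajb1 1416756_at lay above every control array on all 4 arrays at 6 h, Dnajb1 1416755_at overlapped the control range there. Bag3 was within the control range on 3 of the 4 arrays at 6 h. Whether the 2 genes differ in timing was not tested. Hspb1 (1422943_a_at) read 13.56, 11.79, 12.65, 12.33 and 13.18 at 12 h, against 10.80, 10.42, 10.34, 10.39 and 10.24 in control. Its difference was 2.26 ± 0.36 (limma, adjusted p = 4.77e-06), with no overlap between the groups. Hsph1 (1423566_a_at) read 11.36, 9.83, 10.70, 10.22 and 10.97 at 12 h, against 8.91, 8.98, 8.57, 9.24 and 8.95 in control, a difference of 1.69 ± 0.32 (limma, adjusted p = 0.000104). All 3 genes had separate ranges at 12 h and in control.

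Hspa8, the HSP70 that cells make without stress, moved least. Its probe set 1420623_x_at read 13.05, 12.99, 13.00, 12.74 and 13.04 at 12 h, against 12.54, 12.30, 12.41, 12.41 and 12.46 in control, a difference of 0.54 ± 0.12 or 1.45-fold (limma, adjusted p = 0.000635). The groups did not overlap, although the closest arrays were 12.74 and 12.54. The other Hspa8 probe set with control values, 1420622_a_at, gave 0.82 ± 0.21 (adjusted p = 0.0032). These signals lie near the top of the scale, where the highest value of the array set is 14.41 and differences can be understated. Hspe1 (1422579_at) read 11.42, 10.20, 10.75, 11.00 and 11.25 at 12 h, against 9.76, 9.77, 9.17, 9.90 and 9.91 in control, a difference of 1.22 ± 0.19 or 2.33-fold (limma, adjusted p = 5.44e-06).

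At 1 h, before this rise, limma called 0 of the 8 probe sets, against 0.578% of all probe sets, and 2 of the 8 had an unadjusted p under 0.05. Bag3 read 8.15, 8.74, 8.50, 8.84 and 8.81 at 1 h, all below the 5 control arrays, with a difference of -0.63 ± 0.31 (adjusted p = 0.816). Hspb1 also had its 5 arrays below control (-0.82 ± 0.36, adjusted p = 0.686), against 0.614% of all probe sets with separate ranges in that direction. At 6 h both Dnajb1 probe sets were called higher than in control, 2 of the 8, against 3.61% of all probe sets, and 1 of the 8 had separate ranges, against 4.46%. Dnajb1 1416756_at read 12.83, 10.98, 11.19 and 10.25 at 6 h, all above the control arrays, and differed by 2.24 ± 0.34 (adjusted p = 7.35e-06); 1416755_at differed by 1.48 ± 0.32 (adjusted p = 0.00193), with overlapping ranges. The 6 h values of the other 6 probe sets were spread widely and were not called: Bag3 read 11.69, 9.38, 9.20 and 8.90, and Hspb1 read 12.87, 11.11, 11.27 and 9.91.

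A single 6 h array set the upper end of this spread in every chaperone probe set. Replicate 1 of the 6 h group was the highest of its group in 8 of 8 chaperone probe sets and in 25.9% of all probe sets, and replicate 5 was the lowest in 8 of 8 and in 19.2%. Against the 1 h livers, 4 of the 8 were called higher at 6 h (3.07% of all probe sets): both Dnajb1 probe sets, Bag3 (1.19 ± 0.33, adjusted p = 0.0272) and Hspb1 (1.67 ± 0.38, adjusted p = 0.00469). Without 6 h replicate 1 the count was 1, Dnajb1 1416756_at, and the differences were 0.79 for Dnajb1 1416755_at (adjusted p = 0.142), 0.55 for Bag3 (adjusted p = 0.327) and 1.14 for Hspb1 (adjusted p = 0.077). Bag3 was also lost without 1 h replicate 1 (adjusted p = 0.0858) or 1 h replicate 3 (adjusted p = 0.055). From 6 h to 12 h, 4 of the 8 were called higher (4.02% of all probe sets): Bag3 by 1.82 ± 0.33, Hspe1 by 1.04 ± 0.20, Hspb1 by 1.41 ± 0.38 and Hsph1 by 1.20 ± 0.34. That count was 8 without 6 h replicate 1, with both Dnajb1 and both Hspa8 probe sets added. It was 6 without 12 h replicate 4, which added Dnajb1, and 2 without 6 h replicate 2 or 6 h replicate 5, which ended the calls of Hspb1 and Hsph1. That of Hsph1 was also lost without 12 h replicate 1 or 6 h replicate 4. Against control, both Dnajb1 calls at 6 h held without replicate 1, with differences of 1.73 and 0.94 (adjusted p = 0.000193 and 0.0423). In fits of the 2 compared groups alone, that of 1416755_at was lost (adjusted p = 0.0937). So were its call and those of Bag3 and Hspb1 for 6 h against 1 h (adjusted p from 0.107 to 0.244). All 4 calls for 12 h against 6 h were lost too (adjusted p from 0.0743 to 0.183).

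The chaperones came down together after 12 h. All 8 probe sets were lower at 1 d than at 12 h (1.75% of all probe sets), and in 6 of them the ranges were separate (1.3%). Bag3 read 9.98, 9.86, 8.68, 9.04 and 10.52 at 1 d, each below the lowest 12 h array of 11.23, and differed from 12 h by -2.0 ± 0.31 (limma, adjusted p = 4.5e-05). The difference was -2.13 ± 0.30 in Dnajb1 1416755_at, -2.0 ± 0.32 in Hsph1, -1.06 ± 0.19 in Hspe1 and -0.82 ± 0.12 in Hspa8 1420623_x_at. Hspb1 also fell, with overlapping ranges (-1.38 ± 0.36, adjusted p = 0.014), and its call was lost without 12 h replicate 1, 12 h replicate 5 or 1 d replicate 3 (adjusted p from 0.0523 to 0.0676). With the 12 h and 1 d arrays alone, the calls of Hspb1, Hspe1 and Hspa8 1420622_a_at were lost (adjusted p = 0.125, 0.0686 and 0.0501). Against control, 1 of the 8 was still called higher at 1 d (16% of all probe sets; separate ranges in the same 1, 9.41%), Dnajb1 1416756_at, which read 11.02, 10.48, 9.58, 9.87 and 11.04 and was above control by 1.32 ± 0.32 (adjusted p = 0.00121). The other 7 probe sets had differences from -0.32 to 0.88 and adjusted p from 0.0572 to 0.643. Without 1 d replicate 1 a further 2 were called, Hspb1 (1.02, adjusted p = 0.0424) higher and Hspa8 1420623_x_at (-0.33, adjusted p = 0.0428) lower, and without 1 d replicate 3 Hspb1 was (1.12, adjusted p = 0.0185).

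**Figure D2:**
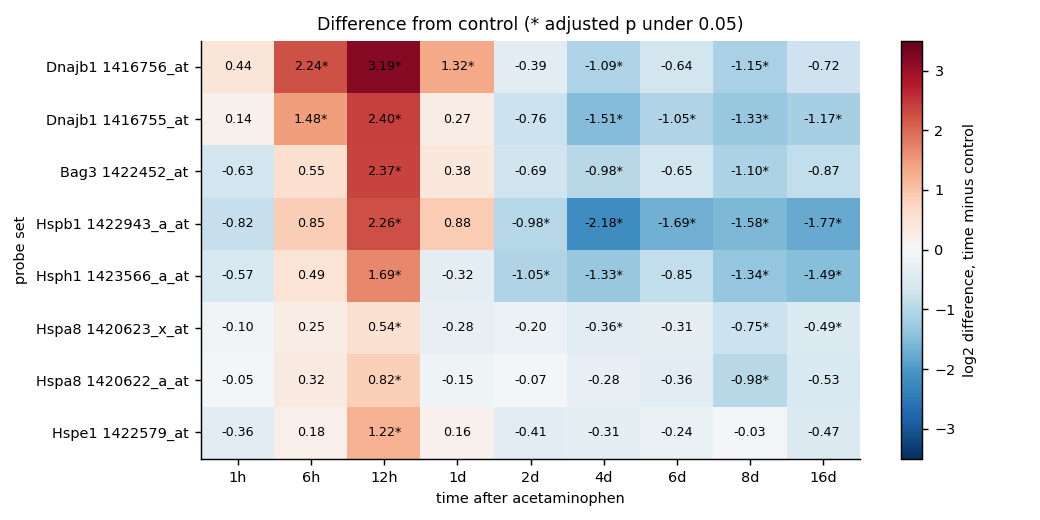
Log2 difference from control of the 8 chaperone probe sets (rows) at each time after acetaminophen (columns), with the value printed in each cell, red for higher and blue for lower and an asterisk where limma's adjusted p was under 0.05. All 8 rows are marked higher at 12 h, and from 2 d on every marked cell is lower than control.

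From 2 d to 16 d the calls against control were all downward. Of the 8 probe sets, 2 were lower at 2 d (12.3% of all probe sets), 6 at 4 d (6.16%), 2 at 6 d (2.41%), 7 at 8 d (2.69%) and 4 at 16 d (3%), and 0 were higher at any of these times. The ranges were separate, with every treated array below every control array, in 4, 6, 3, 6 and 4 of the 8, against 5.75%, 3.67%, 2.45%, 1.98% and 2.1% of all probe sets. The median difference of the 8 was -0.55 at 2 d, -1.04 at 4 d, -0.64 at 6 d, -1.12 at 8 d and -0.79 at 16 d, beside medians of all probe sets between -0.03 and 0.01. Markers of other cells moved at some of these times. The summed level of the 4 monocyte and macrophage markers was 11.29 to 11.81 at 2 d (4 of 4 called higher), 11.14 to 12.31 at 4 d (3 of 4), 10.63 to 11.20 at 6 d (2 of 4, Csf1r and Lyz2), 10.27 to 10.99 at 8 d (0 of 4) and 9.68 to 10.59 at 16 d (0 of 4), against 9.75 to 10.58 in control. That of the 4 stellate cell and myofibroblast markers was 9.75 to 10.51 at 2 d (3 of 4 called higher), 7.49 to 7.84 at 4 d (1 of 4) and between 7.12 and 7.76 at 6 d, 8 d and 16 d (0 of 4 each), against 6.79 to 7.60 in control. Of the 3 neutrophil markers 1, S100a8, was called higher at 2 d (by 2.82), 6 d (2.10) and 16 d (2.17), with sums of 7.49 to 9.05, 7.05 to 8.59 and 7.08 to 8.96, against 6.71 to 7.45 in control. Of the 3 endothelial markers 2 were called higher at 2 d, Pecam1 (by 1.48) and Stab2, and none at 4 d, 6 d, 8 d or 16 d. Of the 3 lymphocyte markers 2 were called lower at 2 d. Apoa1 was at 13.97 to 14.02 at 2 d and 13.84 to 13.96 at 4 d, against 13.92 to 14.03 in control, and was called at none of these 5 times. Its signals lie near the top of the scale, where differences can be understated. The part of these cells in the chaperone differences was not tested.

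Hspb1 was lower than control at each of these 5 times. It read 8.42, 8.57, 7.78, 8.11 and 8.40 at 4 d, against 10.80, 10.42, 10.34, 10.39 and 10.24 in control, and the difference was -2.18 ± 0.36, or 4.54-fold lower (limma, adjusted p = 1.32e-05). At 16 d it read 8.54, 8.87, 8.37, 8.95 and 8.59, again with no overlap, and differed by -1.77 ± 0.36 (adjusted p = 0.000706). Between these lay -1.69 ± 0.36 at 6 d (adjusted p = 0.00108) and -1.58 ± 0.36 at 8 d (adjusted p = 0.0025). Its call at 2 d (-0.98 ± 0.36, adjusted p = 0.0297) was lost without 2 d replicate 1, 2 d replicate 3 or control replicate 1 (adjusted p from 0.0686 to 0.0892).

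Hsph1 differed from control by -1.05 ± 0.32 at 2 d, -1.33 ± 0.32 at 4 d, -1.34 ± 0.32 at 8 d and -1.49 ± 0.32 at 16 d (limma, adjusted p = 0.0103, 0.00256, 0.00454 and 0.00175). At 16 d its arrays read 7.56, 7.72, 6.93, 7.87 and 7.15, all below the control range of 8.57 to 9.24, and at 6 d it was not called (-0.85 ± 0.32, adjusted p = 0.104; without 6 d replicate 3, -1.10 and adjusted p = 0.0284). Dnajb1 1416755_at differed by -1.51 ± 0.30 at 4 d, -1.05 ± 0.30 at 6 d, -1.33 ± 0.30 at 8 d and -1.17 ± 0.30 at 16 d, with no array inside the control range at these times. The 6 d call was lost without 6 d replicate 5 (adjusted p = 0.0651) or control replicate 4 (adjusted p = 0.063). The other Dnajb1 probe set was called at 4 d (-1.09 ± 0.32, adjusted p = 0.0134) and at 8 d (-1.15 ± 0.32, adjusted p = 0.017), a call at 8 d that was lost without 8 d replicate 2 (adjusted p = 0.076) or control replicate 1 (adjusted p = 0.0513), and at 16 d it was at -0.72 ± 0.32 (adjusted p = 0.246).

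Bag3 was called lower at 4 d (-0.98 ± 0.31, adjusted p = 0.0228) and 8 d (-1.10 ± 0.31, adjusted p = 0.019). It read 8.00, 7.98, 8.52, 7.78 and 8.45 at 8 d, below the control range of 8.88 to 9.54. The 4 d call was lost without 4 d replicate 2, 4 d replicate 3 or control replicate 4 (adjusted p from 0.0592 to 0.0662), and the 8 d call without 8 d replicate 4 (adjusted p = 0.0562) or control replicate 4 (adjusted p = 0.052). Hspa8 was lowest at 8 d. There 1420623_x_at read 11.71, 11.34, 11.83, 11.66 and 11.84, all below the control range of 12.30 to 12.54, and differed by -0.75 ± 0.12, 1.68-fold lower (adjusted p = 1.67e-05), while 1420622_a_at differed by -0.98 ± 0.21 (adjusted p = 0.00143). The smaller difference of 1420623_x_at at 4 d (-0.36 ± 0.12, adjusted p = 0.03) was lost without 4 d replicate 1, 4 d replicate 3, control replicate 1 or control replicate 5 (adjusted p from 0.0532 to 0.0885) and with arrays centred on ribosomal protein genes (adjusted p = 0.0873). At 16 d that probe set differed by -0.49 ± 0.12 (adjusted p = 0.00534), a call lost in a fit of the 16 d and control arrays alone (adjusted p = 0.0743), where Bag3 was called instead (-0.87, adjusted p = 0.0393). Hspe1 was not called against control at any time but 12 h; at 8 d it read 9.58, 9.56, 9.61, 9.70 and 9.89, within the control range of 9.17 to 9.91, with a difference of -0.03 ± 0.19. Without control replicate 3, its lowest control array, it was called lower at 2 d (-0.54, adjusted p = 0.0348) and at 16 d (-0.61, adjusted p = 0.0482).

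Between neighbouring times from 1 d on, most chaperone calls were from 1 d to 2 d. From 1 d to 2 d, 5 of the 8 were called lower (3.53% of all probe sets), led by Hspb1 (-1.87 ± 0.36, adjusted p = 0.000156) and Dnajb1 1416756_at (-1.71 ± 0.32, adjusted p = 0.000105). The other 3 calls, Dnajb1 1416755_at, Bag3 and Hspe1, were lost without 1 d replicate 1 or without 1 d replicate 5, which left 2, and that of Hspe1 was lost in 5 more of the 10 fits without an array (1 d replicates 2 and 4, 2 d replicates 2, 3 and 5) and with the 1 d and 2 d arrays alone (adjusted p = 0.0636). From 2 d to 4 d only Hspb1 was called (-1.20 ± 0.36, adjusted p = 0.0137), 1 of the 8 against 12.6%, and this call was lost without 2 d replicate 5 (adjusted p = 0.066). For 6 d against 4 d, 8 d against 6 d and 16 d against 8 d limma called 0 of the 8, against 2.18%, 0% and 0.0123% of all probe sets in either direction. At an unadjusted p under 0.05 the counts were 0, 2 and 3 of the 8.

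The inducible HSP70 genes Hspa1a and Hspa1b, whose coding sequences are nearly identical, had no values in control. They are the pair whose promoter stretches differed in 3 letters. Since near-identical transcripts can bind the same probes, their values are given by probe set. Hspa1a (1452388_at) read 12.75, 9.05, 12.06, 11.99 and 11.69 at 12 h, against 4.06, 4.35, 4.29, 4.24 and 5.01 at 1 h. Even the lowest 12 h array, replicate 2, lay far above the highest 1 h array. The difference was 7.12 ± 0.62 (limma, adjusted p = 4.73e-08). The 1 h signals are low for this array type, where the lowest 10% of values lay under 2.88, and the files give no detection calls, so a fold taken from them depends on the background of the probe set.

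At 1 d Hspa1a read 8.56, 10.73, 7.13, 10.62 and 11.52, still above every 1 h array, with a difference from 1 h of 5.32 ± 0.62 (adjusted p = 1.66e-06). The 1 d arrays were spread over more than 4 log2 units and overlapped those of 12 h; the difference of 1 d from 12 h was -1.80 ± 0.62 (adjusted p = 0.223), and -2.41 without 12 h replicate 2 (adjusted p = 0.0389). At 2 d it read 5.65, 4.93, 4.35, 4.86 and 5.04, and at 16 d it read 4.15, 4.57, 4.07, 4.46 and 4.51, both overlapping the 1 h range. The difference of 2 d from 1 d was -4.75 ± 0.62 (adjusted p = 2.07e-05), that of 2 d from 1 h 0.58 ± 0.62 (adjusted p = 0.514), and that of 16 d from 1 h -0.04 ± 0.62 (adjusted p = 1).

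Hspa1b was measured by 3 probe sets, which gave the same order of groups: 12 h, 1 d, 1 h, 16 d and 2 d. The brightest, 1452318_a_at, read 13.79, 12.74, 13.45, 13.19 and 13.25 at 12 h, against 9.56, 10.47, 11.29, 10.31 and 10.45 at 1 h. The ranges were separate, and the difference was 2.87 ± 0.32 (limma, adjusted p = 1.64e-06), which may be understated since the 12 h signals lie near the top of the scale; the other 2 probe sets gave 2.99 ± 0.34 and 3.40 ± 0.36. At 1 d it read 12.51, 12.96, 11.67, 12.52 and 13.10, above 1 h by 2.14 ± 0.32 (adjusted p = 3.82e-05) and below 12 h by an amount that was not called (-0.73 ± 0.32, adjusted p = 0.448), where the same limit holds. At 2 d it read 9.51, 9.97, 8.61, 9.07 and 9.16, below every 1 d array by more than 1 log2 unit (-3.29 ± 0.32, adjusted p = 4.73e-07). The 2 d livers were also below those of 1 h in all 3 probe sets, by -1.15 ± 0.32, -1.32 ± 0.34 and -1.34 ± 0.36 (adjusted p = 0.0118, 0.00703 and 0.01), with overlapping ranges, whereas the differences of 2 d from 16 d, from -0.53 to -0.46, were not called (adjusted p from 0.297 to 0.343).

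**Figure D3:**
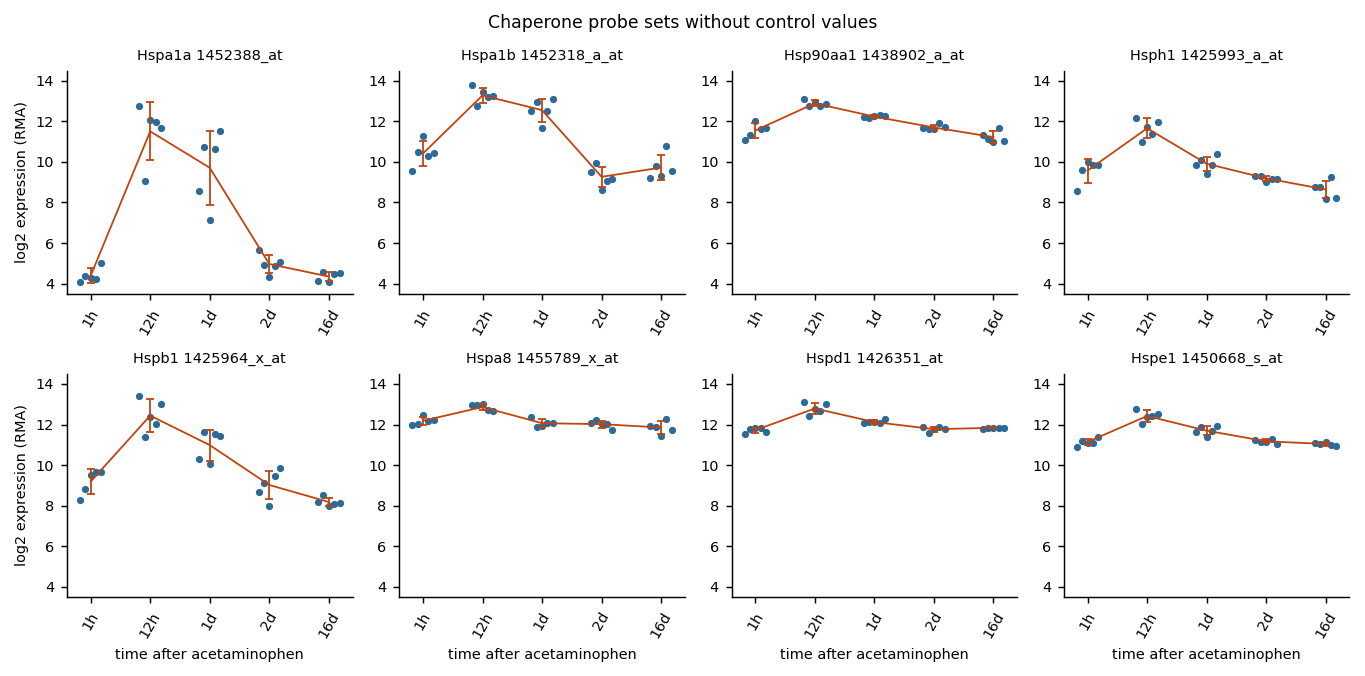
Log2 expression (RMA) of 8 of the 15 chaperone probe sets without control values, the brightest of each gene where a gene has several, at 1 h, 12 h, 1 d, 2 d and 16 d after acetaminophen. Points are arrays, lines join group means and bars are 1 SD; Hspa1a spans more than 4 log2 units among its 1 d arrays, and all 8 panels have their highest mean at 12 h.

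Of the 15 probe sets without control values, 14 were called higher at 12 h than at 1 h (6.3% of all 45037 probe sets) and 12 of these had separate ranges (5.29%). Against 16 d the count was also 14 (6.21%), with separate ranges in 14 (4.67%). The comparisons with 1 h and with 16 d share the 12 h arrays. The median difference of the 15 was 1.89 from 1 h and 2.32 from 16 d, beside -0.07 and -0.06 over all probe sets. The exception was Hsp90aa1 1433251_at, which read between 4.04 and 4.68 on all 25 arrays. Between 16 d and 1 h limma called 0 of the 15 (1.7% of all probe sets in either direction), and 9 had an unadjusted p under 0.05. Hsph1 1425993_a_at, at -0.93 ± 0.25 and adjusted p = 0.0612, was called without 1 h replicate 1 or 16 d replicate 4, with adjusted p = 0.00439 and 0.0218. Beside the 12 h differences from 1 h, the hepatocyte markers (5 of 5 measured) had summed levels of 16.18 to 16.26 at 12 h and 16.24 to 16.27 at 1 h, with none called. That sum rests on signals near the top of the scale, where differences can be understated. The neutrophil markers (4 of 5) had 8.38 to 12.40 at 12 h and 6.99 to 7.93 at 1 h, with 2 called higher. The cholangiocyte markers (4 of 4) had sums of 7.47 to 8.06 at 12 h and 6.63 to 6.82 at 1 h, without overlap, and 1, Sox9, was called higher. The endothelial markers (5 of 5) had 9.72 to 10.45 at 12 h and 9.03 to 9.91 at 1 h, with 2 called higher and 1 lower. Of the monocyte and macrophage markers 1 of 6 was called higher, of the Kupffer cell markers 1 of 4, and of the stellate cell and myofibroblast markers 2 of 5. Their part was not tested.

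Hsp90aa1, the stress-inducible cytosolic HSP90, had 5 probe sets, and the 3 bright ones moved together. Probe set 1438902_a_at read 13.10, 12.77, 12.95, 12.77 and 12.85 at 12 h, against 11.10, 11.32, 12.04, 11.62 and 11.66 at 1 h, with no overlap. The difference was 1.34 ± 0.14, 2.53-fold (limma, adjusted p = 5.5e-07), and 1426645_at and 1437497_a_at gave 1.89 ± 0.16 and 1.89 ± 0.19. At 1 d these 3 remained above 1 h by 0.69 ± 0.14, 0.97 ± 0.16 and 1.04 ± 0.19 (adjusted p = 0.000974, 0.000155 and 0.000306). At 2 d they were above 16 d by 0.47 ± 0.14, 0.65 ± 0.16 and 0.64 ± 0.19 (adjusted p = 0.0206, 0.00768 and 0.0198) and not called against 1 h. Centring the arrays on ribosomal protein genes, which shifted the median of all probe sets by -0.29 there, ended these 3 calls against 16 d (adjusted p = 0.281, 0.074 and 0.1). Leaving out 16 d replicate 3 or 2 d replicate 4 ended those of 1438902_a_at and 1437497_a_at, as did 16 d replicate 5 for the first and 2 d replicate 5 for the second. Of the dim probe sets, 1441827_x_at read 2.43 to 3.14 at 1 h, near the lowest 10% of values, and 3.09 to 4.84 at 12 h (1.18 ± 0.24, adjusted p = 0.00147).

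Hspd1 (HSP60), the barrel of the mitochondrial chaperonin that Hspe1 caps, was measured by 1 probe set. It read 13.13, 12.42, 12.76, 12.65 and 13.00 at 12 h, against 11.54, 11.78, 11.83, 11.81 and 11.65 at 1 h. The ranges were separate and the difference was 1.07 ± 0.10, 2.1-fold (limma, adjusted p = 1.95e-07). Hspe1 1450668_s_at gave 1.28 ± 0.12 over the same comparison (adjusted p = 1.19e-07), with 12.78, 12.02, 12.37, 12.41 and 12.52 at 12 h and 10.92 to 11.37 at 1 h. At 1 d both were above 1 h, Hspd1 by 0.40 ± 0.10 (adjusted p = 0.0071) and Hspe1 by 0.56 ± 0.12 (adjusted p = 0.00164). Centring on ribosomal protein genes ended both calls, with differences of 0.07 and 0.22 (adjusted p = 0.627 and 0.12). That centring shifted the median of all probe sets by -0.34 in this comparison. At 16 d Hspd1 read 11.80 to 11.85, an SD of 0.02 over 5 arrays, and was not distinguishable from 1 h (0.12 ± 0.10, adjusted p = 0.892).

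The second probe sets of Hspb1 and Hsph1 moved like those with control values. Hspb1 1425964_x_at read 13.41, 11.37, 12.36, 12.03 and 13.03 at 12 h, against 8.29, 8.85, 9.52, 9.65 and 9.64 at 1 h, a difference of 3.25 ± 0.38 (limma, adjusted p = 3.23e-06). At 1 d it was still above 1 h by 1.80 ± 0.38 (adjusted p = 0.00158) without overlap. Hsph1 1425993_a_at was above 1 h by 2.08 ± 0.25 at 12 h (adjusted p = 4.67e-06) and by 0.34 ± 0.25 at 1 d (adjusted p = 0.373), so that of the pair Hspb1 alone was called at 1 d; the difference between the genes was not tested. Hspa8 1455789_x_at differed by 0.68 ± 0.13 at 12 h (adjusted p = 0.0012). The dim Hspa8 1431182_at differed by 1.17 ± 0.36 (adjusted p = 0.0323), a call lost when any of 12 h replicates 2 to 5 or 1 h replicates 1 and 2 was left out (adjusted p from 0.0536 to 0.0855).

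The way down also differed among these probe sets in what passed the test. Of the 15, 10 were above 1 h at 1 d (8.8% of all probe sets; separate ranges in 8, 6.91%) and 11 were above 16 d (8.2%; separate ranges in 11, 6.08%). From 12 h to 1 d, 7 were called lower (0.453%), with separate ranges in 7 (0.879%): Hsph1, Hspd1, Hspe1, Hspa8 1455789_x_at and the 3 bright Hsp90aa1 probe sets. The Hspa1a and Hspa1b probe sets and Hspb1 1425964_x_at were not called, though their means also fell. Hspa1a differed by -1.80 and this Hspb1 probe set by -1.45, beside -0.65 in the called Hsp90aa1 1438902_a_at. Means of the 3 Hspa1b probe sets were 13.28, 13.03 and 12.98 at 12 h and 12.55, 11.80 and 12.04 at 1 d. Scatter differed: the SD at 1 d was 1.81 in Hspa1a, 0.56 to 0.85 in Hspa1b and 0.06 in Hsp90aa1 1438902_a_at. The calls of Hsp90aa1 1437497_a_at and 1438902_a_at were lost without 12 h replicate 1 or 12 h replicate 5, and that of 1437497_a_at also without 1 d replicate 3. From 1 d to 2 d, 11 were called lower (1.59%), with separate ranges in 10 (2.09%), and the 4 probe sets of Hspa1a and Hspa1b had the largest differences, from -4.75 to -3.29. The weakest of these calls was that of Hspd1 (-0.35 ± 0.10, adjusted p = 0.0423), which was lost without any 1 of the 10 arrays compared (adjusted p from 0.051 to 0.11) and with arrays centred on their median or on ribosomal protein genes (adjusted p = 0.0508 and 0.188). Hspa8 1431182_at was lost without 1 d replicate 1, 1 d replicate 5 or 2 d replicate 3, Hsp90aa1 1437497_a_at without 1 d replicate 5 or 2 d replicate 3, and Hsp90aa1 1438902_a_at without 2 d replicate 1 or with ribosomal centring (adjusted p = 0.0623). With the 2 compared groups alone, the calls from 12 h to 1 d of Hspd1, Hspe1 and Hsp90aa1 1437497_a_at were lost (adjusted p = 0.0667, 0.0809 and 0.108). That of Hspa8 1431182_at from 1 d to 2 d was lost as well (adjusted p = 0.099). At 2 d 3 of the 15, those of Hspa1b, were called below 1 h (12.1%), and 3, those of Hsp90aa1, above 16 d (9.04%).

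**Figure D4:**
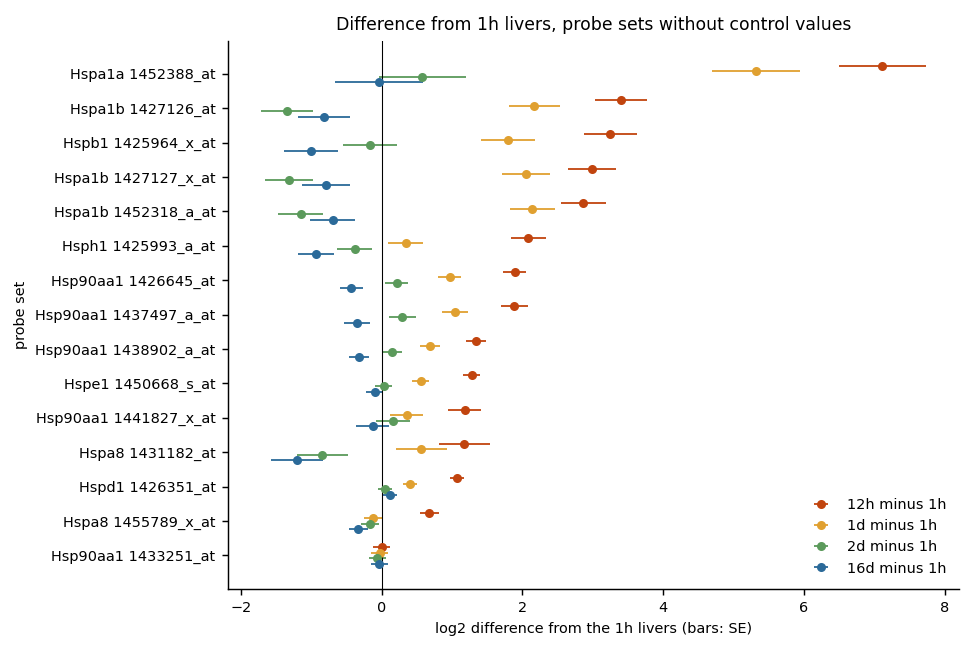
Log2 difference from the 1 h livers of the 15 chaperone probe sets without control values, ordered by their difference at 12 h. Points are differences of group means at 12 h, 1 d, 2 d and 16 d and bars are the SE of limma's fit; the 12 h points run from -0.00 for Hsp90aa1 1433251_at to 7.12 for Hspa1a.

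The same arrays tended to be high or low across chaperone genes within a group. At 12 h replicate 1 was the highest array in 7 of the 8 probe sets with control values (19.0% of all probe sets) and in 10 of the 15 others (16.8%), and replicate 2 was the lowest in 10 of the 15 (24.8%). Among the 8, replicates 2 and 4 were each the lowest in 4 (28.3% and 14.9%). At 1 h replicate 1 was the lowest array in 15 of 15 (16.9%) and in 7 of 8 (14.3%). At 1 d replicate 5 was the highest in 9 of the 15 (22.9%). Probe sets of 1 gene share its transcript, so these counts are not independent.

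Other chaperone genes at 12 h were counted by list. With 1 probe set per gene, 4 of 14 J-domain genes were higher than in control and 0 lower, beside 11.4% and 12% of all 5976 genes. Dnaja4, a cytosolic HSP70 co-chaperone, rose by 2.01 ± 0.47 (8.17 ± 1.62 at 12 h and 6.16 ± 0.24 in control; SD, n = 5 each), Dnajb9, a co-chaperone of the endoplasmic reticulum, by 1.08 ± 0.18 and Dnaja1 by 0.64 ± 0.16. In the comparison with 1 h, which covers more genes, 7 of 26 rose and 0 fell, beside 7.77% and 9.49% of 18193 genes. Subunits of the cytosolic chaperonin CCT and of prefoldin were higher in 4 of 12 against control (Vbp1 by 0.56 ± 0.17, Cct7 by 0.44 ± 0.12 and Pfdn1 by 0.40 ± 0.14 among them) and in 7 of 14 against 1 h, where Pfdn4 rose by 0.76 ± 0.20, and 0 were lower in either. The medians of the list were 0.23 and 0.30, beside -0.05 and -0.08 over all genes.

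Of the partners of HSP90 and HSP70, 2 of 16 were higher and 1 lower than in control. Against 1 h, 3 of 27 were higher and 4 lower. Over all genes 11.4% were higher and 12% lower than in control, and 7.77% higher and 9.49% lower than at 1 h. The partner counts lay near these shares, which also stand beside the other counts of this paragraph. Hspa4, an HSP110 family exchange factor, rose by 0.50 ± 0.09 against control and Hspa13, an HSP70-like protein of the endoplasmic reticulum, by 1.01 ± 0.17 against 1 h, and the dim Hspa1l (4.24 ± 0.91 at 12 h and 3.42 ± 0.18 in control) rose by 0.82 ± 0.21. Bag4 differed by -0.71 ± 0.22 from control, and St13, an HSP70-interacting protein, and Ahsa2 differed by -0.57 ± 0.10 and -0.54 ± 0.15 from 1 h. Among small heat shock proteins, Hspb8, a partner of Bag3 in autophagy, rose by 1.47 ± 0.24 and was 1 of 3 called against control; against 1 h 1 of 8 rose and 1, Hspb6 (-0.76 ± 0.21), fell. Of the mitochondrial chaperones and proteases 1 of 8 was higher than in control, Hspa9 (mortalin, 0.37 ± 0.08), and 2 were lower, Clpx (-0.78 ± 0.28) and Trap1, the mitochondrial HSP90 (-0.34 ± 0.12); against 1 h 1 of 13 was higher and 2 lower, Hscb (-0.68 ± 0.18) among them.

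Heat shock factors and their regulators had no values in control. Between 12 h and 1 h limma called 0 of 5, beside 7.77% of all genes higher and 9.49% lower, and 1 had an unadjusted p under 0.05. At these shares 0 calls among 5 genes do not set them apart from other genes. The differences of the 5 ran from -0.27 to 0.27, with adjusted p from 0.114 to 0.551. Of the other heat-inducible genes 5 of 6 were higher at 12 h than in control and 0 lower, beside 11.4% and 12% of all genes. Against 1 h, 7 of 11 were higher, beside 7.77%. Zfand2a, which binds the proteasome under stress, read 10.93 ± 0.41 at 12 h and 8.30 ± 0.41 in control (SD, n = 5 each), a rise of 2.62 ± 0.28 (limma, adjusted p = 8.23e-10). Ier5, a stress-responsive immediate early gene, rose by 2.84 ± 0.35, Rgs2 by 1.05 ± 0.39 and, against 1 h, the transcription factor Atf3 by 4.55 ± 0.64. All 7 lists were chosen with earlier results of these data known, and no test was made of a list as a whole.

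**Figure D5:**
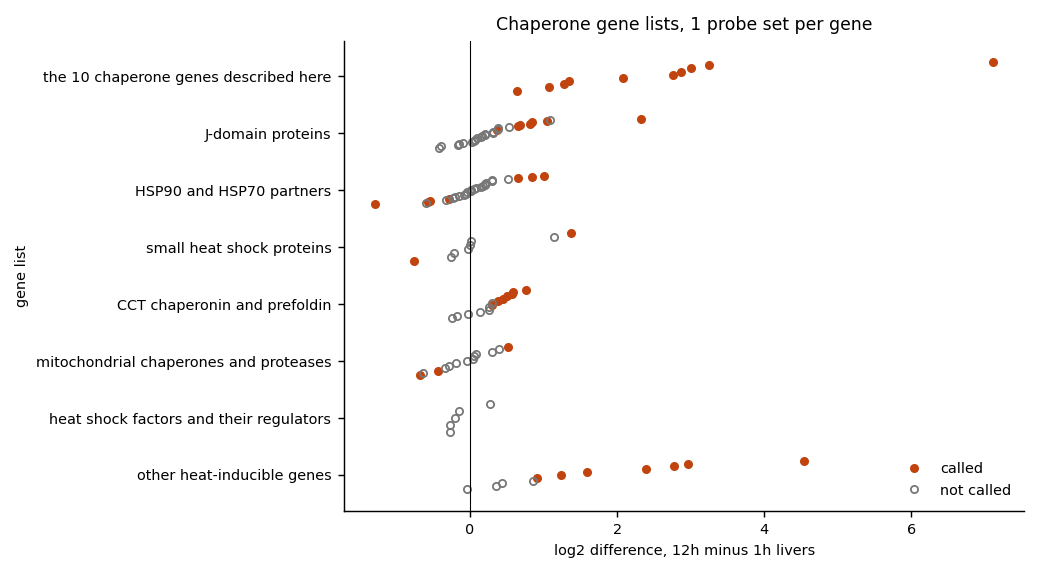
Log2 difference of 12 h minus 1 h livers for the genes of the chaperone lists, 1 probe set per gene. Each is the brightest of its gene but for Hspb1, which is shown by 1425964_x_at. Filled points are genes called by limma at an adjusted p under 0.05 and open points are the others. The 10 chaperone genes described here are all filled and above 0, and of the other lists, J-domain proteins, chaperonin subunits and other heat-inducible genes hold filled points on the upper side alone.

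The probe sets whose course was most like that of a chaperone probe set were taken by correlation, as a description. Over the 10 group means, among 1457 probe sets whose means spanned at least 1 log2 unit, Dnajb1 1416756_at was most like Fam107b (Pearson r = 0.98), Ddit3 (0.98), Impact (0.97), Ifrd1 (0.97) and Oser1 (0.97). Ddit3, the transcription factor CHOP of the stress response, was at 10.57 at 12 h and 8.00 in control. Over the 25 arrays, among 3898 probe sets, Hspa1b 1452318_a_at was most like probe sets of Pcbp2 (0.96), Lce1f (0.93), Mmp10 (0.91), Eif4e (0.90) and Sqstm1 (0.90), the autophagy receptor p62. The points share groups and arrays, so no p is given.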

How the data were processed

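Liver RNA was measured on 49 Affymetrix Mouse Genome 430 2.0 arrays. Per the labels' protocols, total RNA was primed with oligo(dT) and turned into labelled cRNA; the values used are deposited log2 expression values, made by the authors with RMA (oligo 1.52.0), per the submitters' processing notes. The sources used here do not say whether all arrays were normalized together.

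Control probe sets were left out. Group means were fitted with limma 3.58.1 (R 4.3.3; lmFit, eBayes) in 2 tables: over 8137 probe sets with values on all 49 arrays, and over 45037 on the 25 arrays that hold the whole table. P-values were adjusted over all probe sets by the Benjamini-Hochberg method, and the fit was checked on simulated data. Probe sets were named by the platform annotation where it gives 1 symbol. The members and lists were chosen with earlier results of these data known. Named were all members, from each list up to 3 called genes a direction at 12 h, and the 5 probe sets most like 1 of Dnajb1 and 1 of Hspa1b. The precision is limited by 4 or 5 arrays a group. Replicate numbers were not taken as pairs. Over 216 same-numbered pairs the deviations correlated with r from -0.56 to 0.82, median 0.07, beside a median of -0.01 for different numbers. Of the 49 arrays, 29 correlated best with an array of their own number, so same-numbered arrays may share a source of scatter. What the numbers mark was not tested. Alternatives were array weights, centring, quantile normalization, dim and cross-hybridizing probe sets, 1 probe set per gene, the compared groups alone, the replicate block and leaving out arrays.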

Additional observations from a re-analysis of the deposited data

Results flagged for a closer look

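Within groups of 4 or 5 arrays, an array was singled out where its gap to the nearest other array took up more of the group's range than Dixon's 95% critical value. Of 155 groups of chaperone values, 11 passed it, and chance alone flags about 1 in 20 groups. At 12 h these were Hspa1a on replicate 2 (9.05, the lowest of its group), Dnajb1 1416756_at on replicate 4 (11.3, the lowest) and Hspa8 1420623_x_at on replicate 4 (12.7, the lowest). Among early arrays, Bag3 was highest on 6 h replicate 1 (11.7), and Hsph1 1425993_a_at was lowest on 1 h replicate 1 (8.55). Among later ones, Hspd1 was highest on 1 d replicate 5 (12.3), Dnajb1 1416756_at was lowest on 4 d replicate 3 (7.82), Hspb1 1422943_a_at was highest on 6 d replicate 3 (9.70), and Hsp90aa1 1437497_a_at was lowest on 16 d replicate 3 (9.57). In control, Dnajb1 1416756_at was lowest on replicate 2 (8.34) and Hspe1 1422579_at on replicate 3 (9.17), an array of narrower spread. The cause of these values was not tested.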

How the results depend on the processing

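The count of 8 of 8 chaperone probe sets higher at 12 h than in control was 8 under each array left out, and under the fit with the replicate block, which gave 8 there, 14 of 15 for 12 h against 1 h, and moved none of 271 results across the threshold. With array weights the counts of called chaperones were 5 at 2 d (2 as reported), 6 at 6 d (2) and 8 at 16 d (4) against control, 8 for 12 h against 6 h (4), 2 for 4 d against 2 d (1) and 5 for 16 d against 1 h (0). With the 2 compared groups alone they were 1 at 6 h (2), 2 at 1 d (1) and 4 at 2 d (2) against control, 1 for 6 h against 1 h (4), 0 for 12 h against 6 h (4), 5 for 1 d against 12 h over 8 probe sets (8) and 4 over 15 (7), 3 for 4 d against 2 d (1) and 1 for 16 d against 1 h (0). Median centring gave 2 at 1 d and 6 at 2 d against control, ribosomal centring 2 and 6 and also 7 for 2 d against 1 h (3), quantile normalization 5 at 2 d, and leaving out dim probe sets 2 at 1 d and 1 for 16 d against 1 h. With 1 probe set per gene, which leaves fewer members, they were 1 at 6 h and 1 at 6 d against control, and, over the 25 arrays, 6 (14) for 12 h, 5 (10) for 1 d, 1 (3) for 2 d and 1 (0) for 16 d against 1 h, 6 (14), 6 (11) and 1 (3) for 12 h, 1 d and 2 d against 16 d, 4 (7) for 1 d against 12 h and 5 (11) for 2 d against 1 d; without cross-hybridizing probe sets 12 h gave 9 against 1 h and 9 against 16 d. Leaving out an array gave 2 to 3 at 6 h, 1 to 3 at 1 d, 1 to 3 at 2 d, 4 to 6 at 4 d, 1 to 4 at 6 d, 6 to 7 at 8 d and 4 to 5 at 16 d against control, 1 to 5 for 6 h against 1 h, 2 to 8 for 12 h against 6 h, 2 to 5 for 2 d against 1 d and 0 to 1 for 4 d against 2 d. Hsp90aa1 1433251_at turned to -0.35 (adjusted p = 0.0138) for 1 d against 16 d under ribosomal centring, which shifted the median of all probe sets by -0.35 there. That centring shifted it by -0.25 at 1 d and -0.22 at 2 d against control and by -0.21, -0.34 and -0.27 at 12 h, 1 d and 2 d against 1 h, and median centring by -0.23 at 2 d against control. Over all probe sets, ribosomal centring called 20823 for 12 h against 1 h (6174 as reported), 9.76% of them higher (46.0%), and 30576 for 1 d against 1 h (8089), 6.63% higher (49%). Against control it called 4428 at 2 d (2590), 24.2% higher (61.2%), median centring called 4368 there, 24.5% higher, and at 12 h ribosomal centring put 30% of calls higher (50.4%) and the 2 compared groups alone called 1002 (1857). The cause of these changes was not tested.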
